A study of Mus musculus with 2 samples.

Results

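The CpG-rich blocks were 298 of 2412 autosomal blocks of 1000 kb (12.4%) that carried at least 1500 listed CpG cytosines in the RRBS data of XX and XO mESCs. They were chosen by the number of listed cytosines alone, with no methylation value used, and held 675682 of 1756096 autosomal cytosines (38.5%). RRBS, reduced representation bisulfite sequencing, cuts DNA at CCGG and reads the ends of short fragments after bisulfite conversion, so it samples CpG-dense DNA most heavily. Both libraries carry the cell line label Xmas mESC, female C57/Bl6 embryonic stem cells whose X chromosomes carry different fluorescent reporters (GFP and mCherry) driven by the Hprt promoter. The cells were grown for 7 passages by the labels (the methods text of the study gives another number) in the modified 2i/LIF culture that all cells shared, and were then separated by FACS into XX cells, which kept both reporters, and XO cells, which arise in such cultures. Whether both populations came from 1 culture and 1 derivation is not given in the sources used here. With 1 library for each karyotype no p-value is given, and karyotype cannot be told apart from library. A sorted population is not a clone, and a cell is called XO by its reporters rather than by a count of its chromosomes. No marker of the cell type can be checked in methylation data of this kind.

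In mammals, methyl groups sit mainly on the cytosine of CpG. DNMT1, guided by UHRF1, copies them to the new strand after replication, and DNMT3A and DNMT3B place new ones. Most CpGs in the genome lie far apart and are methylated, whereas CpG islands, dense runs of CpG that often cover gene promoters, stay largely unmethylated. Female mESCs with both X chromosomes active are known for low genome-wide methylation, and cells that lose an X regain it. Each value below is the percent of reads at a cytosine that were methylated, averaged over alleles and cells, so fewer methylated cells and less methylation within each cell cannot be told apart. Differences are XX minus XO in percentage points. The strands of a CpG are listed as separate cytosines. A cytosine with fewer than 5 other listed cytosines within 100 bp is called sparse, and the rest are called dense. The other strand of the same CpG, where listed, counts among these neighbours. The classes thus follow coverage as well as CpG spacing. The same class need not have the same CpG density in CpG-rich and other blocks.

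Reference sequence shows what these classes look like within the block that held the most listed cytosines, chr10:80000000-80999999. The first stretch below, chr10:80054015-80054214, had the most listed cytosines of any stretch of that length in the block. It lies within Gpx4, a glutathione peroxidase that protects lipids from oxidation, 6948 bp from the start used for that gene. The second, chr10:80492372-80492571, holds sparse CpGs outside genes, 2364 bp from the start of Onecut3. The third, chr7:44256997-44257196, lies at the start of Acp4, an acid phosphatase gene whose promoter showed the largest drop of all promoters in the CpG-rich blocks. The fourth, chr15:102331660-102331859, overlaps Myg1 and Pfdn5 and had the largest increase. All are the forward strand of GRCm38, 200 bases long, and capitals mark the CpGs listed in the data.
densest stretch: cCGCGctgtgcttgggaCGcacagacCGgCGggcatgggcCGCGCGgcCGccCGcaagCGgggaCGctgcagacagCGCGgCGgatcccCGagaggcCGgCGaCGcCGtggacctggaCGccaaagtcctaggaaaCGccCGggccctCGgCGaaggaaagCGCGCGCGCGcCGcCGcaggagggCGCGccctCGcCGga
sparse CpG: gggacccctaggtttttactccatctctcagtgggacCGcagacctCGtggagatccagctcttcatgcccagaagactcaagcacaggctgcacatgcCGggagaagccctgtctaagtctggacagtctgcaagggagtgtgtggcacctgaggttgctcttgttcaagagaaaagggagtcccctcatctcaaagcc
Acp4: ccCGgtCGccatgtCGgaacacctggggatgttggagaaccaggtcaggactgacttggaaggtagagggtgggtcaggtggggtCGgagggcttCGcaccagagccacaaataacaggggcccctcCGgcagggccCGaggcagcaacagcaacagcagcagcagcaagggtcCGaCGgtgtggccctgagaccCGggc
Myg1: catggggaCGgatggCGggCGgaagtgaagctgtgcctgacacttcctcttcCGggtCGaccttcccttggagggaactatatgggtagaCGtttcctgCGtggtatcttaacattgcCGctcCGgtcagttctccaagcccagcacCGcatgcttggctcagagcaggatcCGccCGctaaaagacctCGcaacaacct
The densest stretch holds 36 CpGs and 4 CCGG sites, and its 71 listed cytosines averaged 2.03% in XX and 0.799% in XO, with no cytosine above 12.1% in either library. The stretch with sparse CpGs holds 3 CpGs and 1 CCGG site, and its 4 listed cytosines averaged 15.7% in XX and 32.1% in XO. Its only CpG listed on both strands had opposite directions. The forward strand had 33.3% in XX and 22.2% in XO, and the reverse strand 7.41% and 37.5%. The low-methylated, closely packed letters and the scattered, more methylated ones thus lay less than 1000 kb apart. At Acp4 the 14 listed cytosines averaged 12.6% in XX and 55.6% in XO, ranging from 0 to 29.7% and from 20 to 91.7%. At Myg1 the 19 listed cytosines of the stretch averaged 34.9% in XX and 13.7% in XO, ranging from 0 to 100% and from 0 to 60%.

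The CpG-rich blocks shared more than their listed cytosines. Their GC content was between 41.5% and 53.7% with a median of 47.5%, against a median of 41.1% in the other autosomal blocks. The reference holds a median of 13275.5 CpGs and 1137 CCGG sites in a CpG-rich block, and of 7504.5 and 515 in another block. They were also sampled more fully: a median of 8.17% of their CpG cytosines was listed, against 2.71% elsewhere, and 1.85 cytosines were listed for each CCGG site, against 0.783. They carried a median of 20 starts of protein-coding genes (3 to 67), against 4, and repeats covered a median of 28.1% of their bases, against 32.8%. No block of chromosome X entered the comparison, and none of its 164 blocks had more than 1013 listed cytosines.

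Methylation was lower in XX than in XO cells in all 298 CpG-rich blocks. The mean over blocks was 15.9% ± 2.39 in XX and 22.6% ± 4.05 in XO (SD over the 298 blocks of 1 library, here and below), a difference of -6.68 ± 1.85 points. Single blocks differed by between -14.2 and -1.70 points. All 2412 autosomal blocks were lower in XX cells (100%), so the direction was common to CpG-rich and other blocks. Their difference was smaller: 16 of 298 lay 10 or more points lower in XX cells, compared with 46.2% of all autosomal blocks. The other blocks averaged 22.5% in XX and 35.0% in XO, a difference of -12.5 points, so that CpG-rich minus other blocks gave -6.56 points in XX, -12.4 points in XO cells and 5.86 points for the difference. When each cytosine rather than each block was counted once, that last gap was 2.62 points. Among the other blocks, those with 500 to 1499 listed cytosines averaged 17.6% in XX and 25.6% in XO, a difference of -8.03 points. The 1218 blocks with fewer than 500 differed by -15.8 points, so much of the gap lay to these. In relative terms, XX cells had a median of 70.7% of the XO level in CpG-rich blocks and 66.1% in the others.

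**Figure D1:**
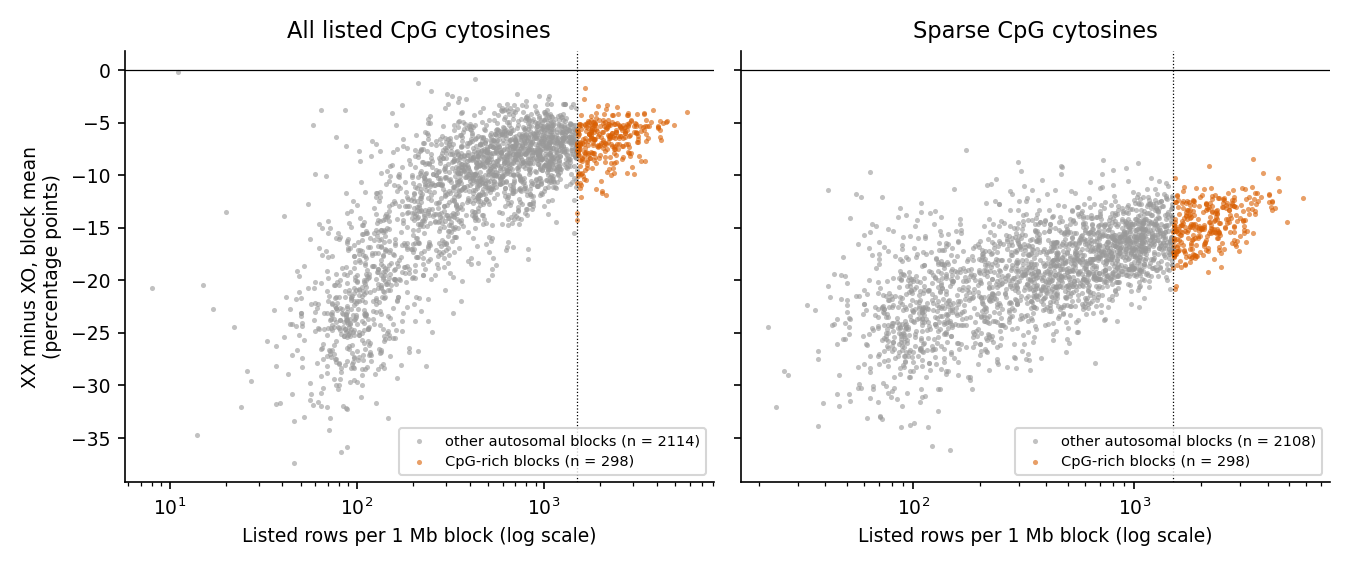
Difference in methylation (XX minus XO, percentage points, vertical axes) of each autosomal block against its number of listed cytosines (rows; horizontal axes, log scale), over all cytosines and over sparse ones; each point is 1 block, and the dotted line marks 1500 listed cytosines. All CpG-rich blocks lie below 0, with means of -6.68 points over all cytosines and -14.6 points over sparse ones.

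Separating the cytosines by how many others were listed nearby changed the level of the CpG-rich blocks. Over their 162050 sparse cytosines the blocks averaged 33.0% ± 2.19 in XX and 47.6% ± 3.33 in XO, a difference of -14.6 ± 2.05 points that ran from -20.8 to -8.48. Over their 513632 dense cytosines they averaged 10.4% ± 1.74 and 14.5% ± 3.01, a difference of -4.12 ± 1.59 points. Sparse cytosines made up a median of 24.3% of the listed ones in a CpG-rich block and of 35.5% in another block. All 298 blocks were lower in XX cells for sparse and for dense cytosines alike. Of the other blocks with at least 20 such cytosines, 2108 of 2108 were lower for sparse and 1966 of 2000 for dense ones. For sparse cytosines, 295 of 298 blocks lay 10 or more points lower, against 99.4% of all autosomal blocks, and 2 lay 20 or more points lower, against 33.7%.

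The difference of CpG-rich blocks was smaller among sparse cytosines alone as well. Sparse cytosines of the other blocks averaged 36.0% in XX and 55.3% in XO, a difference of -19.3 ± 4.30 points, which is 4.72 points larger. CpG-rich minus other blocks gave -3.03 points in XX and -7.75 points in XO cells. Of the other blocks, 87.2% had a larger difference than the median CpG-rich block, and 90.9% a higher XO level. Blocks with 500 to 1499 listed cytosines, the nearest in number, lay between, at 35.4% in XX and 52.3% in XO and a difference of -16.9 ± 2.69 points over 896 blocks. The 1218 blocks with fewer than 500 differed by -21.1 points. With only cytosines that had no other within 100 bp counted as sparse, the gap between CpG-rich and other blocks was 2.86 points.

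The blocks nearest the minimum on either side were compared. The blocks just inside it, chr5:100000000-100999999 and chr10:67000000-67999999, had 1500 listed cytosines each and sparse levels of 32.6% and 35.5% in XX and of 51.5% and 50.9% in XO cells. Those just outside, chr5:144000000-144999999 and chr9:20000000-20999999, had 1499 each and sparse levels of 37.0% and 35.4% in XX and of 53.9% and 52.3% in XO cells. The last of these holds Dnmt1, the maintenance methyltransferase gene, and a cluster of olfactory receptor genes.

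Methylation in the CpG-rich blocks dropped in steps with the number of listed cytosines nearby. Cytosines with no other listed within 100 bp averaged 38.1% in XX and 54.3% in XO, a difference of -16.1 points. With 1 to 4 others the levels were 32.1% and 46.3% (-14.3 points), with 5 to 9 others 21.2% and 32.2% (-11.0 points), and with 10 to 19 others 12.03% and 16.2% (-4.12 points). With 20 or more others, which held for 39.1% of the cytosines of CpG-rich blocks, the levels were 4.67% and 5.49%, a difference of -0.82 points. The densest class was therefore nearly unmethylated in both libraries. The other blocks had larger differences in every class, of -19.4, -17.6, -14.1, -4.85 and -0.87 points from the sparsest class to the densest, and the distance between the kinds of block was small in the last 2 classes.

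Class shares were then exchanged between the kinds of block. Over single cytosines, CpG-rich blocks differed by -6.50 points and the other blocks by -9.12. Given the class shares of the other blocks, the values of CpG-rich blocks gave -7.42 points, and the values of the other blocks with the shares of CpG-rich blocks gave -7.99. With equal shares the kinds of block thus lay closer together than with their own.

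**Figure D2:**
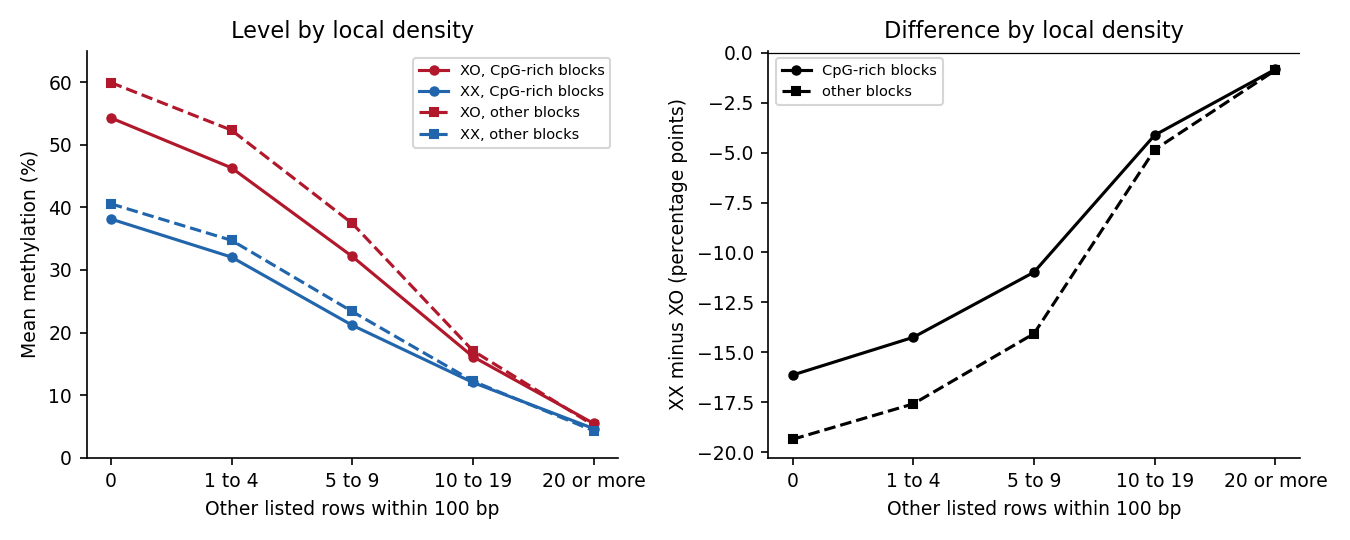
Left, mean methylation (percent) in XX and XO cells, and right, the difference XX minus XO (percentage points), by the number of other listed cytosines (rows) within 100 bp, for CpG-rich and other blocks; each point is a mean over the cytosines of 1 class. In CpG-rich blocks the XO mean goes from 54.3% with no neighbour to 5.49% with 20 or more, the XX mean from 38.1% to 4.67%, and the difference from -16.1 to -0.82 points.

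Position relative to genes separated the cytosines further. In CpG-rich blocks, the 304207 cytosines within 1 kb of a protein-coding gene start averaged 8.03% in XX and 9.43% in XO, and those of the other blocks 7.23% and 8.60%. Near gene starts, CpG-rich blocks were thus not lower than the rest. Dense cytosines over 1 kb from a start averaged 14.4% and 22.1%, against 16.8% and 27.2% elsewhere. A single start was used per gene, so this class can include alternative promoters. Sparse cytosines within 1 kb of a start averaged 26.8% and 33.5%, against 25.5% and 32.9% in the other blocks. Over 1 kb from a start, sparse cytosines averaged 33.5% and 48.9% inside genes and 33.1% and 48.0% outside them. Outside the CpG-rich blocks these last classes had 35.7% and 53.2%, and 36.6% and 55.8%. Of these classes, the distance in XO cells between the kinds of block was largest in dense repeats, at 19.96% in CpG-rich and 39.2% in other blocks, with 13.6% and 23.7% in XX cells. Repeats supplied 5.37% of the listed cytosines in CpG-rich blocks and 12.5% in the others.

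Single cytosines varied more than the block means. In CpG-rich blocks 18.9% of cytosines dropped 20 or more points from XO to XX cells, compared with 22.4% of all autosomal ones, and 3.91% were at least 20 points higher, compared with 3.69%. Among sparse cytosines of CpG-rich blocks the shares were 39.5% and 5.92%, against 44.0% and 5.11% of all autosomal sparse cytosines. In XO cells 48.0% of these sparse cytosines were methylated in 50% of reads or more, and in XX cells 24.7%, compared with 55.1% and 27.2% over all autosomal blocks. The number of reads behind each value is unknown, and a cytosine at 0% or 100% can rest on few reads.

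The strands of each block were also compared, since a forward and a reverse cytosine are read from different strands of the DNA. Of the 162050 sparse cytosines of CpG-rich blocks, only those of 11343 CpGs were listed on both strands. Forward and reverse sparse means thus rest mostly on different CpGs of the same libraries. Their distance mixes differences between CpGs with measurement error and is not a measure of precision. Over all cytosines both strands were lower in XX cells in all 298 blocks, with mean differences of -6.70 and -6.66 points. Over sparse cytosines the means were -14.6 and -14.6 points, again lower in all 298 blocks on each strand. With the strands combined, all 2412 autosomal blocks were lower over all cytosines, and all 2406 with at least 20 sparse ones over these. Within a block, the strands' sparse differences lay a median of 1.69 points apart. Forward and reverse sparse differences had a Pearson r of 0.433 and a Spearman rho of 0.433 over the 298 blocks. These blocks share both libraries, so the correlation is a description only. The strands thus gave partly different orders of the blocks.

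Blocks with more XO methylation also had more XX methylation. Over sparse cytosines of the 298 blocks, r was 0.801 and rho 0.791. Both values of a block rest on the same cytosines, and the correlation is a description. Where sparse CpGs listed on both strands were grouped by their forward XO value and read on the reverse strand, those of CpG-rich blocks kept more of the XO level than those of other blocks in 9 of 10 bands. Between 50 and 60% on the forward strand, 1400 CpGs of CpG-rich blocks had 29.8% in XX and 48.9% in XO on the reverse strand, which is 60.9% of the XO level. The 2880 CpGs of other blocks in this band had 30.6% and 53.2%, or 57.5%. In the band from 90 to 100%, the order turned, at 67.6% against 68.5%.

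The CpG-rich blocks were spread over all 19 autosomes, unevenly. Chromosome 11 had the most, 35 of 119 blocks (29.4%), which held 61.0% of its listed cytosines. Chromosome 3 had the smallest share, 6 of 157 blocks (3.82%). On 19 of 19 autosomes the CpG-rich blocks were less methylated than the other blocks in XX and in XO cells, and their difference was smaller, for all, sparse and dense cytosines. Dense cytosines of blocks with 500 to 1499 listed, over all autosomes, averaged 10.4% in XX and 14.9% in XO, a difference of -4.53 points. CpG-rich blocks had 10.4%, 14.5% and -4.12 points, and blocks with fewer than 500 listed had 17.7%, 29.3% and -11.7 points. The distance for dense cytosines thus lay mainly to the last of these. Over sparse cytosines the mean of CpG-rich blocks varied little between chromosomes, from 32.2% on chromosome 17 to 34.6% on chromosome 16 in XX cells and from 46.2% to 49.9% on the same chromosomes in XO cells. The difference ran from -16.5 points over 5 blocks of chromosome 13 to -13.5 points over 6 blocks of chromosome 3. Chromosome 13 had the smallest gap to its other blocks, 1.92 points, and chromosome 3 the largest, 7.31 points. Over all cytosines the range was from -7.70 points on chromosome 5 to -5.18 points on chromosome 6.

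**Figure D3:**
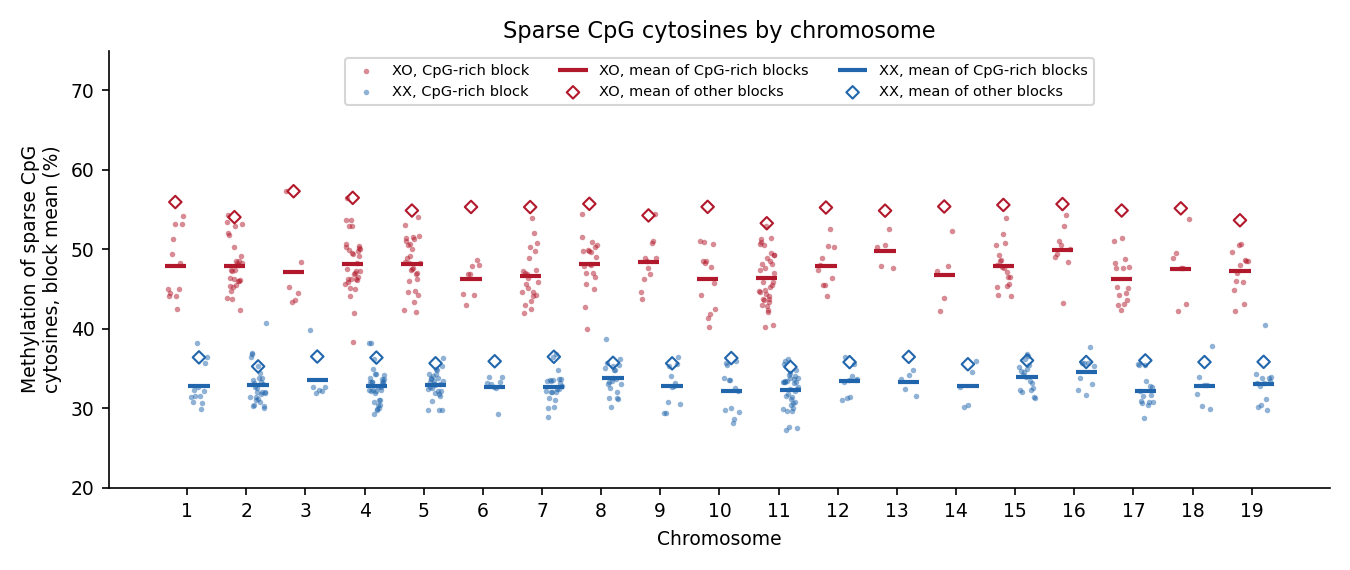
Methylation of sparse cytosines (block mean, percent, vertical axis, which starts at 20%) by autosome (horizontal axis) in XX and XO cells; dots are single CpG-rich blocks, bars their mean and diamonds the mean of the other blocks of that chromosome. On all 19 autosomes the bar of the CpG-rich blocks lies below the diamond in both libraries.

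Along the chromosomes, 206 of the 298 blocks touched another CpG-rich block and 92 stood alone. The longest run joined 14 blocks at chr4:128000000-141999999, with 261 gene starts. Its sparse cytosines averaged 32.0% in XX and 47.1% in XO, and its single blocks spanned from -20.8 to -8.48 points, which are also the ends of the range over all CpG-rich blocks. A run of 9 at chr2:25000000-33999999 averaged 33.5% and 49.2%, and a run of 8 at chr11:113000000-120999999 averaged 32.4% and 47.2%. The last 10 blocks of the autosomes held 48 of the 298, and 186 of all 2412 blocks. These had a sparse difference of -15.1 points, against -14.5 for the 250 elsewhere.

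Gene content ordered the CpG-rich blocks. The 111 blocks with 3 to 17 starts of protein-coding genes averaged 17.0% in XX and 24.7% in XO over all cytosines, a difference of -7.71 points. The 89 blocks with 18 to 25 starts differed by -6.51 points, and the 98 blocks with 26 to 67 starts averaged 15.0% and 20.6% and differed by -5.67 points, with an SD over blocks of between 1.12 and 2.09 points in these groups. The share of sparse cytosines went down along the same groups, from 28.4% to 24.3% and 20.97%. Over sparse cytosines alone the differences were -15.5 ± 2.09, -14.6 ± 1.85 and -13.6 ± 1.72 points. The XO levels in these groups were 48.7%, 47.8% and 46.1%, and the XX levels 33.2%, 33.2% and 32.5%, so the groups overlapped widely and the steps were about the size of the SD over blocks or less.

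At a like number of gene starts or like GC content the CpG-rich blocks still had the smaller sparse difference. These bands were not matched for the kind of gene or for the XO level. With 30 or more gene starts, 76 CpG-rich blocks differed by -13.3 ± 1.499 points and 41 other blocks by -17.5 ± 4.82. With 10 to 19 starts, the band with most CpG-rich blocks, 118 of these differed by -15.2 ± 2.02 points and 360 others by -17.0 ± 2.94. With 20 to 29 starts, 82 differed by -14.5 ± 1.90 points and 82 others by -17.6 ± 4.18. With fewer than 10 starts, 22 CpG-rich blocks differed by -16.1 ± 2.14 points and 1625 others by -19.98 ± 4.32. At a GC content of 46 to 48%, 118 CpG-rich blocks differed by -14.5 ± 1.88 points and 87 others by -16.4 ± 2.45. At 44 to 46%, 55 CpG-rich blocks differed by -15.2 ± 1.94 points and 274 others by -16.8 ± 2.56. At 42 to 44% the values were -13.5 over 8 blocks and -17.3 over 455 others, and at 48 to 50%, -14.6 over 78 and -17.4 over 19. In these bands the gap was smaller than the 4.72 points over all blocks. Within the CpG-rich blocks, the number of gene starts had an r of 0.405 with the sparse difference, and GC content an r of 0.025, as descriptions over 298 blocks.

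**Figure D4:**
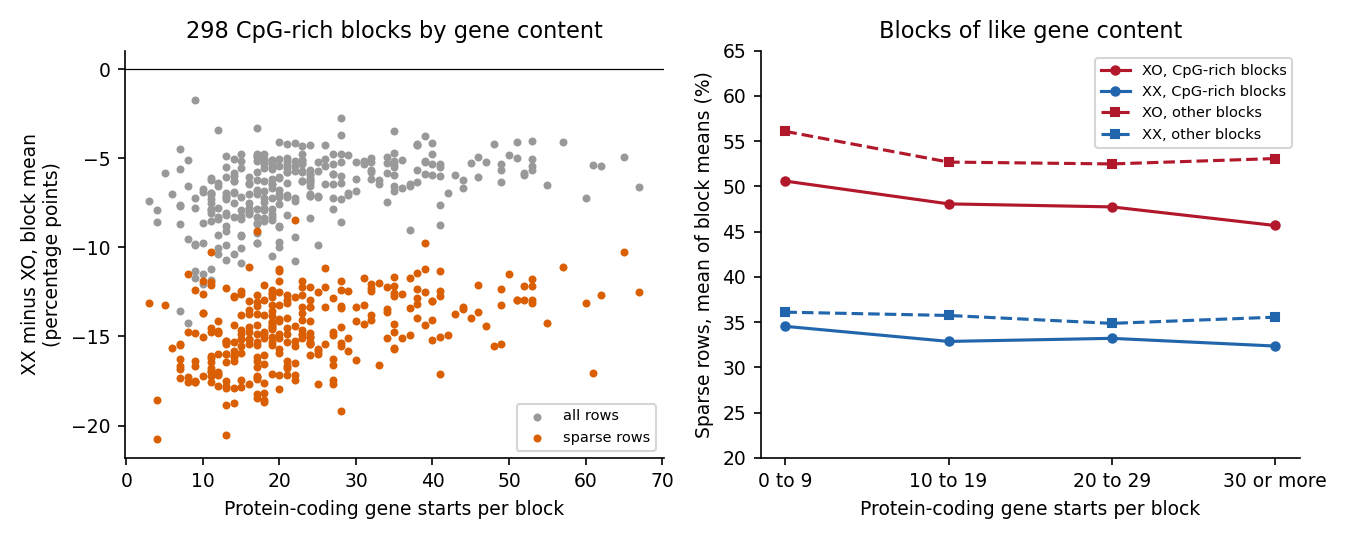
Left, difference in methylation (XX minus XO, percentage points) of each of the 298 CpG-rich blocks against its number of protein-coding gene starts, over all and over sparse cytosines (rows), 1 point a block; right, mean sparse methylation (percent, axis from 20%) of CpG-rich and other blocks in bands of gene starts. CpG-rich blocks lie below the others in every band in both libraries, as in that of 30 or more starts, with 45.7% against 53.1% in XO and 32.4% against 35.5% in XX cells.

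The blocks with most listed cytosines were gene-rich. The first, chr10:80000000-80999999, had 5787 listed cytosines and 53 gene starts, among them Stk11, the LKB1 kinase, Dot1l, a histone H3 methyltransferase, and Mbd3, a subunit of the NuRD complex. It averaged 13.2% in XX and 17.2% in XO, and 28.1% and 40.3% over sparse cytosines. The next, chr11:120000000-120999999 with 4916 listed cytosines and the fatty acid synthase gene Fasn, had sparse levels of 32.7% and 47.1%. Then came chr8:70000000-70999999 (4508), at 31.3% and 42.7%, and chr11:69000000-69999999 (4480), which holds Trp53, the p53 gene, and Polr2a, the large subunit of RNA polymerase II, at 33.5% and 43.7%. The fifth, chr7:19000000-19999999 with 4327 listed cytosines, holds Apoe and the excision repair genes Ercc1 and Ercc2 and had 28.9% and 41.99%. Their sparse differences ran from -14.4 to -10.3 points, all smaller than the mean of the 298 blocks.

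The 5 blocks with the largest sparse differences had from 1500 to 2144 listed cytosines. The block chr4:131000000-131999999, with 4 gene starts including the splicing factor gene Srsf4, went from 52.9% in XO to 32.2% in XX cells, and its strands differed by -22.1 and -19.4 points. The block chr1:91000000-91999999, which holds the clock gene Per2, went from 53.2% to 32.6%. These were followed by chr2:119000000-119999999 (with the Notch ligand gene Dll4) at -19.2 points, chr5:100000000-100999999 at -18.8 and chr5:140000000-140999999 at -18.7. All 5 had XX sparse levels between 31.2% and 35.4%, near the mean of CpG-rich blocks, and XO levels between 50.4% and 54.1%, above it. Picking the largest difference favours a high XO level, and the strand values rest on the cytosines used for the pick. These levels and strand values are thus a description only.

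The smallest sparse difference, -8.48 points, was in chr4:133000000-133999999, which holds Arid1a, a subunit of the BAF remodelling complex, and had 38.3% in XO and 29.8% in XX cells. The Hoxa block chr6:52000000-52999999, with the Hoxa genes that pattern the body axis and Evx1, had 43.0% and 33.9%, a difference of -9.08 points, with -7.14 and -11.0 on its strands. The block chr8:84000000-84999999 (Klf1, a red cell transcription factor, and Junb) differed by -9.78 points, chr11:69000000-69999999 by -10.3 and chr19:43000000-43999999 by -10.3. The last had strand differences of -13.6 and -6.95 points. Apart from this block and the Hoxa block, the strands of these blocks lay within 2 points of each other. The blocks were picked by the mean over these same cytosines, so the strands are no separate support.

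Over all cytosines the extremes were other blocks, which were named after their values were seen. The largest difference, in chr8:117000000-117999999, was between 22.4% in XX and 36.7% in XO. The highest level in both libraries was in chr11:113000000-113999999, at 27.0% and 40.5%, where 53.5% of listed cytosines were sparse. The smallest difference was in chr2:18000000-18999999, which holds the Polycomb gene Bmi1, at 10.7% and 12.4%, where 10.8% of cytosines were sparse. Over the 298 blocks, the share of sparse cytosines had an r of -0.830 with the difference over all cytosines. No block was higher in XX cells.

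Of 20807 autosomal protein-coding genes, 7036 (33.8%) start in a CpG-rich block. For 5036 of them at least 10 cytosines were listed within 1 kb of the start, here called the promoter, and for 1090 none was. The median promoter had 7.60% in XX and 8.77% in XO, and 6.60% and 7.79% in the other blocks, and 3292 of the 5036 were lower in XX cells by any amount, as were 4482 of 7010 in the other blocks. At least 20 points lower were 56 promoters, against 1.33% of all autosomal promoters, and at least 20 points higher were 6, against 0.158%. Of the 5036, 2825 had less than 10% in XO cells and a median difference of -0.26 points. The 50 with at least 50% in XO cells had medians of 42.3% in XX and 55.6% in XO, and 47 of these were lower in XX. In the other blocks 70 of 73 such promoters were lower, with a median difference of -23.9 points against -17.3 here. Promoters picked for a high XO value tend to be lower in the other library by this choice, so these counts are a description only.

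The promoters with the largest drop rested on few cytosines. Acp4 (chr7:44256378-44258378, the reference stretch printed above) went from 55.6% in XO to 12.6% in XX cells over 14 cytosines, with -29.2 and -56.6 points on its strands. The uncharacterised gene 4933414I15Rik (chr11:50942765-50944765) went from 42.1% to 9.14%, and Mus81 (chr19:5487402-5489402), which encodes a DNA junction endonuclease, from 38.9% to 6.63%. The strands of Mus81 differed by -11.0 and -38.8 points. Gpr157 (chr4:150086365-150088365), an orphan receptor gene, went from 71.8% to 39.8%, with -34.6 and -28.2 points on its strands. Zfp82, a zinc finger gene, went from 59.4% to 29.1% and Igflr1, a receptor gene in the same block, from 49.8% to 19.6%. Klhl10, a gene needed for sperm formation, went from 47.9% to 17.97% and Espnl, an espin-like gene, from 53.8% to 24.8%. All 8 had between 10 and 19 cytosines, and both strands of each were lower in XX cells. The promoters were picked by the mean over these same cytosines, which makes this likely, so the strands are no separate support.

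At the promoters with the largest increase in XX cells, between 87.9% and 100% of the listed cytosines were dense, and XO methylation was at most 13.3%. Neither sets them apart. Of the 304207 cytosines within 1 kb of a gene start in CpG-rich blocks, 290346 were dense, and the median promoter had 8.77% in XO. Picking the largest increase also favours a low XO level. Myg1 (chr15:102330709-102332709), an exonuclease gene, had 41.4% in XX and 13.3% in XO over 33 cytosines, with 21.02 and 32.2 points on its strands. At the CpG at chr15:102331783, XX methylation was 47.4% on the forward and 2.94% on the reverse strand. At chr15:102331712 it was 0% and 58.3%, with 0% and 60% in XO cells. At the other CpGs of the printed stretch listed on both strands, XX methylation was at most 2.99%. Tatdn3 and Nsl1, a kinetochore gene, start back to back on chromosome 1 and share the same 38 cytosines, at 24.3% and 2.54%. Nipsnap1, a gene for a mitochondrial protein, had 20.99% and 0.192%, with 8.26 and 33.3 points on its strands. Mrpl28, a gene of the mitochondrial ribosome, had 32.7% and 11.99%, with 20.8 and 20.6 points. These are single measurements of 18 to 38 cytosines each.

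**Figure D5:**
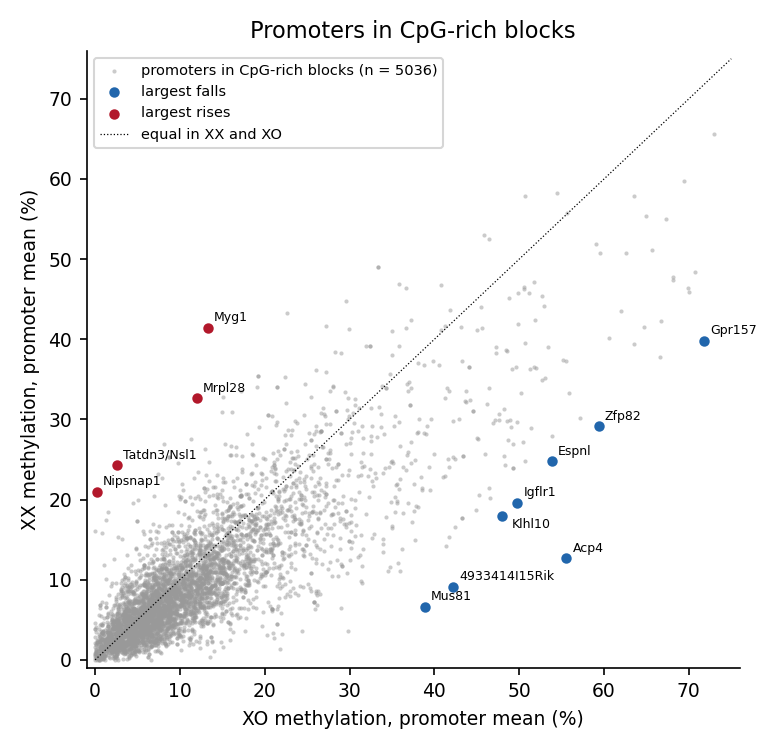
Promoter methylation in XX (vertical axis, percent) against XO cells (horizontal axis, percent) for the 5036 promoters of CpG-rich blocks with at least 10 listed cytosines; each point is 1 promoter, the line marks equal values, and the largest drops and increases are coloured. The labelled promoters below the line include Acp4 at 55.6% in XO and 12.6% in XX cells, and those above it include Myg1 at 13.3% and 41.4%.

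Gene groups were placed unevenly in the CpG-rich blocks, which hold 33.8% of all protein-coding genes. Of developmental transcription factors 96 of 217 (44.2%) start there, of ribosomal protein genes 37 of 78 (47.4%), of mitochondrial ribosomal protein genes 36 of 78 (46.2%) and of proteasome genes 24 of 47 (51.1%). Zinc finger genes were near the share of all genes, at 121 of 383 (31.6%), as were germline genes, at 10 of 30, and genes of the DNA methylation machinery, at 5 of 16. Clustered protocadherins (9 of 57), imprinted genes (3 of 26) and naive pluripotency genes (4 of 18) were below it, and olfactory and vomeronasal receptor genes had the smallest share of all groups, at 32 of 1413 (2.26%).

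Most promoters of these groups were low in both libraries. The 86 measured promoters of developmental transcription factors had medians of 7.70% in XX and 9.08% in XO, and 60 were lower in XX. The exception among them was Sox15, a SOX factor gene expressed in mESCs, at 42.2% and 66.7%, followed by Hoxc12 at 41.4% and 36.6% and Foxh1, a cofactor of Nodal signalling, at 21.9% and 35.6%. The strands of Hoxc12 differed by -18.9 and 30.1 points, so its direction is uncertain. The 35 ribosomal protein promoters had medians of 9.67% and 12.3%, with Rpl13a highest at 23.7% and 36.6% (1.35 and -18.6 points on its strands), and the 34 mitochondrial ribosomal ones 6.98% and 8.06%. The 93 zinc finger promoters had 6.37% and 8.29%, with 62 lower in XX. The 21 proteasome promoters had 6.63% and 8.06%, with 11 lower in XX cells and a median difference of -0.34 points that became 1.04 within 500 bp of the start. Psmb6, a catalytic subunit, was highest, at 34.9% and 52.7%. At least 20 points lower were 2 zinc finger promoters, 1 of developmental transcription factors and 0 of the other 3 groups, beside 1.33% of all autosomal promoters. The counts lower in XX cells by any amount are to be read beside the 3292 of 5036 for all promoters of these blocks.

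Of the smaller groups, the measured members with most XO methylation were as follows. Among genes of the DNA methylation machinery, Uhrf1 had 17.8% in XX and 23.4% in XO over 73 cytosines, Mbd3 6.55% and 8.91% over 143, and the de novo methyltransferase gene Dnmt3b 4.69% and 5.56% over 153. Within 500 bp of the start, none of these 3 promoters had more than 3.76% in XX or 3.91% in XO. The higher Uhrf1 level thus came from cytosines further from its start. Of naive pluripotency genes, Stat3, the factor through which LIF acts, had 7.62% and 10.5%, with opposite signs on its strands, and Pou5f1, which encodes OCT4, 2.15% and 6.47%. Of imprinted genes, Nnat, expressed from the paternal allele, had 26.6% and 26.7% over 35 cytosines (14.5 and -8.82 points on its strands) and Mcts2 6.70% and 12.7%. The 6 measured germline promoters had medians of 8.18% and 14.4%, with 4 of 6 lower in XX cells. Fkbp6, a gene of meiosis, had 12.5% in XX and 26.0% in XO, Smc1b, a meiotic cohesin gene, 30.6% and 20.4% with opposite signs on its strands, and Piwil2, a piRNA pathway gene, 21.7% and 18.8%. Of the 9 protocadherin genes starting in CpG-rich blocks none had 10 listed cytosines, and of the 32 receptor genes 1 did, at 39.4% and 63.6%.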

How the data were processed

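RRBS libraries (NuGEN Ovation Methylseq kit) of sorted XX and XO Xmas mESCs were measured, 1 per karyotype. The values are those the authors deposited, the percent of reads at a CpG cytosine that stayed methylated in each library; the submitters' processing notes name bcl2fastq, Bismark and mm10. Versions and the coverage minimum were not given in the sources used here. Read depth is unknown, so no interval was computed. A cytosine is listed only with a value in both libraries, and the number listed in a block moves with CpG density, CCGG sites and coverage.

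Positions were compared with GRCm38.p6, and 22 cytosines of the CpG-rich blocks did not lie on a CpG but were kept. Gene starts were taken from GENCODE M21, with a single start per gene and no alternative starts, and repeats from soft-masked bases. Means over blocks counted each block once, and block means over sparse cytosines needed at least 20 of these. The values by number of nearby cytosines, with exchanged shares, by position relative to genes and over repeats counted each cytosine once. Blocks with more listed cytosines weigh more in these. Analyses used Python 3.11.15, numpy 2.4.6 and pandas 2.3.3, and were tested on simulated data. No test was run. The members and gene lists were chosen with earlier results of these data known. Blocks named were the 5 with most cytosines, the 5 with the largest and the 5 with the smallest sparse difference, any that rose, and 2 on each side of the minimum. Promoters named were the 8 with the largest drop, the 5 with the largest increase and, from each list, up to 3 of the highest in XO cells. Alternatives changed the minimum, borders, strand, weighting, spacing, repeats, gene starts and thresholds.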

Additional observations from a re-analysis of the deposited data

How the results depend on the processing

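Of 145 comparisons with an alternative, 125 kept their direction and moved by no more than 1.5 times, 19 moved further and 1 reversed, over 19 alternatives. All CpG-rich blocks were lower in XX cells over sparse cytosines under every alternative run for that count, also with a minimum of 1000 listed cytosines (621 blocks, a sparse difference of -15.3 points), of 2000 (163 blocks, -13.99) or with borders moved by 500 kb (294 blocks, -14.5).

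Weighted by cytosines, the gap to the other blocks over all cytosines was 2.62 points. With medians within blocks, the difference was -4.09 points over all and -1.25 over dense cytosines. With sparse meaning no other within 100 bp, the dense difference was -6.38 points and the sparse gap to the other blocks 2.86. Without cytosines within 1 kb of a gene start, the difference was -11.0 points over all and -8.23 over dense cytosines, and 28.9% of cytosines were at least 20 points lower. At 10 points 30.9% were lower and 9.56% higher, and at 30 points 10.8% and 1.67%. Within 500 bp of the start, the promoter median difference became 1.04 points for proteasome genes, -0.83 for developmental transcription factors, -1.11 for ribosomal protein genes and -0.16 for DNA methylation genes. Within 2000 bp it became -0.12 for mitochondrial ribosomal protein and -0.07 for proteasome genes, and with 5 cytosines as the minimum -5.99 for imprinted and -4.62 for germline genes. Removal of cytosines, other thresholds and other weights change what is averaged by construction. Beyond this the cause was not tested.

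No paired analysis was possible because each karyotype had 1 library, so leaving out a replicate was not an option. The unknown depth limits single cytosines and promoters most.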
